A study of Mus musculus with 4 samples.

Results

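The genes described here are antimicrobial products of Paneth cells (*Lyz1*, *Ang4*, *Itln1*, *Mmp7*, *Defa5*, *Defa17* and *Defa24*) and the *Reg3* lectins (*Reg3a*, *Reg3b* and *Reg3g*), 10 genes of the 32575 genes or identifiers that the arrays measured. They were chosen by name, with earlier results of these data known, as were all gene lists below. Counts set against all genes are therefore descriptive only. A probe was assigned to a gene through the RefSeq accession printed for it in the scanner files. 8 of the 10 had a probe, with 9 probes in all because *Itln1* had 2. No probe was listed under the accession of *Defa17* or *Defa24*, so neither is described further. RNA was measured on 4 arrays, 1 each for the spinal cord of WT mice, the spinal cord of IP6K2-KO mice, the duodenum of WT mice and the duodenum of IP6K2-KO mice. IP6K2 is a kinase that makes the inositol pyrophosphate IP7, and the WT mice were littermates of the mice lacking it. All were male, 20 weeks old, and had been kept on CE-2 chow before 1 week of the purified diet iVid-neo and a fast of 48 h, so no array shows fed animals or chow alone. The labels do not give how many mice an array represents, whether both organs came from the same mouse, or which segment of the duodenum was taken, and whole organs were extracted.

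Paneth cells sit at the base of the small intestinal crypts, beside the stem cells, and release granules filled with antimicrobial proteins into the lumen. The granules hold lysozyme, which cuts bacterial cell walls, α-defensins, which permeate bacterial membranes, and the ribonuclease angiogenin 4. In mice the protease matrilysin, encoded by *Mmp7*, trims the α-defensin precursors to their active form. The Reg3 proteins are secreted C-type lectins made by enterocytes as well as Paneth cells, and their genes are known to respond to bacteria through MyD88 and to interleukin 22 through STAT3.

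With 1 array per genotype and tissue there was no replicate check, no test was made, and each difference below is a value for a pair of arrays. The processed signal, an intensity in arbitrary units, had a 75th percentile of 905 on the WT spinal cord array, 971 on the KO spinal cord array, 68.0 on the WT duodenum array and 323 on the KO duodenum array. Of 39429 probes, 51.6% to 77.3% were well above background on an array, lowest on the WT duodenum array. Unless stated otherwise, differences are between log2 signals from which the 75th percentile of the array had been subtracted. The *Ip6k2* probe was higher by 1.45 on the spinal cord array labelled KO than on the WT array and lower by 0.21 (log2 difference −0.21) on the duodenum array labelled KO, with signals of 452, 1320, 139 and 572 in the order above. The files do not tell whether this probe lies within the exon that the mice lack. Its signals on the KO-labelled arrays of both tissues, each well above background, would oppose the genotype label only if it does. Since this is not known, the arrays are called KO-labelled throughout.

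The 8 measured members were well above background on both duodenum arrays. Among them 4 Paneth cell genes were at least 2-fold lower on the KO-labelled duodenum array than on the WT array, namely *Ang4*, *Itln1*, *Defa5* and *Lyz1*, against 11.9% of the 21421 genes well above background on at least 1 of these arrays. No member was at least 2-fold higher, against 7.2% of those genes. The median difference of the 8 members was −0.997, and that of the 16801 genes detected well above background on each array of the pair was −0.11. The 3 *Reg3* genes differed by less than 2-fold. Which members passed 2-fold depended on the scaling of the arrays, as given gene by gene below. In whole duodenum, fewer cells of a type and less RNA per cell cannot be told apart.

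**Figure D1:**
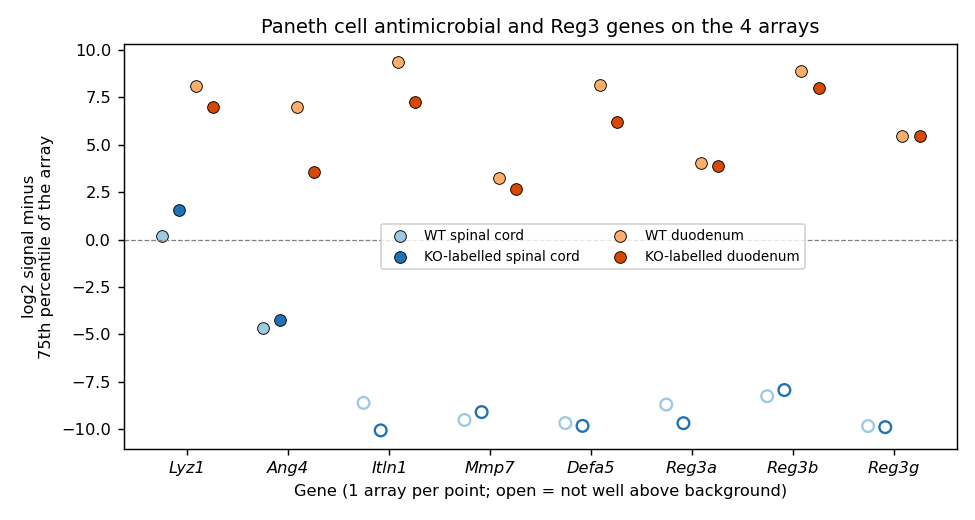
Log2 processed signal minus the 75th percentile of the array (vertical axis, log2 units) for the 8 measured genes, 1 point per array; filled points are well above background and open points are not. Each gene has both duodenum points above its spinal cord points, and the only filled spinal cord points are those of *Lyz1* and *Ang4*.

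*Ang4* (NM_177544) encodes angiogenin 4, a ribonuclease of the Paneth cell granule that kills bacteria. In the spinal cord it gave a signal of 35.5 (WT) and 52.0 (KO-labelled), and in the duodenum 8771 (WT) and 3792 (KO-labelled). It was the one measured member whose unscaled signal was lower on the KO-labelled duodenum array, at 0.432 of the WT signal, although the 75th percentile of that array was the higher. After scaling the difference was −3.46, or 10.98-fold lower, with a technical SD of 0.068. That SD is a median over the 50 probes nearest in brightness among 399 probes with 10 spots per array. It covers the spots of an array and not mice. The value was the same for *Lyz1*, *Itln1*, *Defa5*, *Reg3b* and *Reg3g*, which differ in brightness, so it was not closely matched to each gene. Over 9 processing settings the *Ang4* difference lay between −3.46 and −0.45 and was below 0 in each. Relative to the median gene, it lay between −3.34 and −2.53.

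*Defa5* (NM_007851) encodes an α-defensin, one of a family of near-identical peptides named cryptdins in the mouse. Its signal was 1.1 on both spinal cord arrays, neither well above background, 19695 on the WT duodenum array and 23479 on the KO-labelled duodenum array. The difference in the duodenum was −1.99, or 3.98-fold lower. It was −1.04 under quantile normalization of the 4 arrays and 1.01 under scaling on the 8 spiked-in control probes, a scaling that moved the median gene to 2.89. Relative to the median gene it stayed below 0 in the 9 settings, from −1.88 to −1.05. Settings that differ only by a shift common to an array give the same relative value, so the 9 are not separate checks. A probe for one α-defensin can bind transcripts of others, so the value is uncertain as a measure of *Defa5* alone.

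*Itln1* (NM_010584) encodes intelectin 1, a lectin that binds sugars found on microbes. The brighter probe read 2.3 and 0.90 on the WT and KO-labelled spinal cord arrays, neither well above background, and 44311 and 48944 on the WT and KO-labelled duodenum arrays. The second probe read 22065 and 24570 on the duodenum arrays, so the ratio of KO-labelled to WT signal was 1.105 for one probe and 1.114 for the other. The scaled difference of the brighter probe was −2.10, or 4.30-fold lower, and the mean of both probes gave −2.10 as well. Under quantile normalization of the 4 arrays it was −0.89, which is less than 2-fold, and under scaling on the control probes it was 0.90.

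*Lyz1* (NM_013590) encodes the lysozyme of Paneth cells, and its close paralog *Lyz2* the lysozyme of macrophages. In the spinal cord the *Lyz1* probe read 1037 (WT) and 2885 (KO-labelled), and in the duodenum 18380 (WT) and 40594 (KO-labelled). The duodenum difference was −1.10, or 2.15-fold lower, just past the 2-fold mark. It was −0.23 under quantile normalization of the 4 arrays and 1.90 under scaling on the control probes. The *Lyz2* probe read only 17.8 and 73.2 on the duodenum arrays, a difference of −0.20. The files do not say how far either probe binds the other transcript.

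*Mmp7* (NM_010810), the gene of the protease that activates mouse α-defensins, read 642 on the WT duodenum array and 2050 on the KO-labelled duodenum array. Its spinal cord signals were 1.2 and 1.8, neither well above background. The duodenum difference was −0.57, the smallest among the 5 Paneth cell members, and relative to the median gene it ranged from −0.46 to 0.12 over the settings. The difference of *Mmp7* lay above that of *Defa5*, which encodes one of the substrates of the enzyme, by 1.42 on the log2 scale, a gap of 0.72 to 1.42 over the settings.

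The 3 *Reg3* genes differed by less than 2-fold between the duodenum arrays. *Reg3g* (NM_011260), whose protein binds the peptidoglycan of Gram-positive bacteria, read 2949 on the WT duodenum array and 14394 on the KO-labelled array, a scaled difference of 0.040. *Reg3a* (NM_011259), a further lectin of the family, read 1128 and 4670, a difference of −0.20. *Reg3b* (NM_011036), the family member known for activity on Gram-negative bacteria, read 32710 and 83744, a difference of −0.89. On the spinal cord arrays the 3 genes read between 0.98 and 3.9 and none was well above background. The direction of *Reg3b* depended on the scaling, with 0.27 under quantile normalization of the 4 arrays and 2.11 under the control probes, and it was below 0 in 5 of 9 settings. *Reg3a* was below 0 in 3 of 9 settings and *Reg3g* in 0 of 9.

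The promoter windows of 4 members are shown because *Ang4* differed most among the members and the *Reg3* genes, which lie in 1 cluster, differed little. The windows are from RefSeq on GRCm38.p6 and run from 250 bases before to 50 bases after the annotated start, 5′ to 3′ on the strand of the gene, and capitals mark motif matches. *Ang4* is at chr14:51773541-51773840 on the minus strand, *Reg3b* at chr6:78370635-78370934 on the plus strand, *Reg3a* at chr6:78380459-78380758 on the plus strand and *Reg3g* at chr6:78468825-78469124 on the minus strand.
Ang4: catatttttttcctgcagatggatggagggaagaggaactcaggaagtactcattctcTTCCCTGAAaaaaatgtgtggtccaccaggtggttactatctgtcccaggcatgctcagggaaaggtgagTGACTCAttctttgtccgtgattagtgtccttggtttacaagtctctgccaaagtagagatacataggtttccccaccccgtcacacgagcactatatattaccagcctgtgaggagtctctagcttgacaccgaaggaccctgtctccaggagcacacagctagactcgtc
Reg3b: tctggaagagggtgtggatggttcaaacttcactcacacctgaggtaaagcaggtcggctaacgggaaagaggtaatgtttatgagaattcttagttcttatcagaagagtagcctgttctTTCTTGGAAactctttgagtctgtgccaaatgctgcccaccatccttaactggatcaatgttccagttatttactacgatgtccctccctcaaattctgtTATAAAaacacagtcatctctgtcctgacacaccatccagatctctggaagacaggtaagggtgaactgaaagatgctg
Reg3a: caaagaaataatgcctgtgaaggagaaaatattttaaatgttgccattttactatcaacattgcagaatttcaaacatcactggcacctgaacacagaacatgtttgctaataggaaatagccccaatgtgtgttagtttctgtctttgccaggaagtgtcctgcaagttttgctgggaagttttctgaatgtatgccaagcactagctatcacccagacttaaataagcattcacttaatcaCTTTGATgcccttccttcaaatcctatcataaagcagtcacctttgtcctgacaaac
Reg3g: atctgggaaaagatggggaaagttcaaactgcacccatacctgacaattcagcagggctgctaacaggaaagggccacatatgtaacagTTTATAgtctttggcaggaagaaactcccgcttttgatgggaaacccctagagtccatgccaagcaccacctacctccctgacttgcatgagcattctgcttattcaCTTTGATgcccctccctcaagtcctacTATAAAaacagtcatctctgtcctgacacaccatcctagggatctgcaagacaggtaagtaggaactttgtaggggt

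A window was available for 7 of the 10 members (those above with *Itln1*, *Lyz1* and *Mmp7*), and 5 motifs were searched on both strands after the array values were known. The STAT-type motif TTCNNNGAA, which reads the same on both strands, was matched in *Reg3b*, where the match begins 129 bases upstream of the start, and in *Ang4*, 192 bases upstream. It was matched in 8.30% of all 32851 windows. The TCF/LEF-type motif CTTTGAT was matched in *Reg3a*, *Reg3g* and *Mmp7* and in 3.73% of all windows, and its variant CTTTGAA in none of the 7 members and in 5.14% of all windows. The letters TATAAA of a TATA box were matched in *Reg3b*, *Reg3g* and *Mmp7* and in 13.6% of all windows, and the AP-1 motif TGACTCA in *Ang4* and *Mmp7* and in 5.20%. No motif overlapped another, and *Itln1* and *Lyz1* had no match to any of the 5. A match describes these letters only, and the part of any motif in the array differences was not tested.

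The mouse *Reg* genes lie next to each other on chromosome 6 in the order *Reg3b*, *Reg3d*, *Reg3a*, *Reg2*, *Reg1* and *Reg3g*, with 1 pseudogene before *Reg3g*. These neighbours did not differ alike on the duodenum arrays. *Reg3d*, which is no member, read 2813 on the WT array and 33113 on the KO-labelled array and was higher by 1.31. *Reg1*, known from the exocrine pancreas, read 77050 and 149856 and differed by −1.29. *Reg2* read 80295 and 153004 and differed by −1.32. *Reg4*, a family member outside this cluster, was higher by 0.63. Under quantile normalization of the 4 arrays, the differences of *Reg1* and *Reg2* were both at 0.33 to 0.34, whereas *Reg3d* was at 1.53. *Reg1* and *Reg2* were each below 0 in 5 of 9 settings. *Reg3d* lay above *Reg1* by 2.60, with a range of 1.15 to 2.60 over the settings, and above *Reg2* by 2.63, with a range of 1.16 to 2.63. It lay above its member neighbours *Reg3a* by 1.46 to 1.77 and *Reg3b* by 1.25 to 2.20 over the settings, so the order held and the size of the gaps depended on the scaling. Several settings give equal gaps by construction, as set out for the members below. The probes of this family may bind more than 1 member.

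The brightness of the probes moved with the differences. Among genes with a mean duodenum signal over 10000, classes set after seeing the data, the median difference of 799 genes was −0.76 and 35.5% were at least 2-fold lower. *Lyz1*, *Itln1*, *Defa5* and *Reg3b* belong to this class. Among the 2774 genes with a mean signal of 1000 to 10000, which include *Ang4*, *Mmp7*, *Reg3a* and *Reg3g*, the median was −0.27 and 11.1% were at least 2-fold lower. Under quantile normalization of the 4 arrays the medians of the same classes were 0.038 and 0.024. Set against the median of their class under the 75th percentile scaling, *Lyz1* and *Reg3b* lay close to it, *Itln1* and *Defa5* lower, and *Ang4* furthest below. The part of brightness in these differences was not tested.

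**Figure D2:**
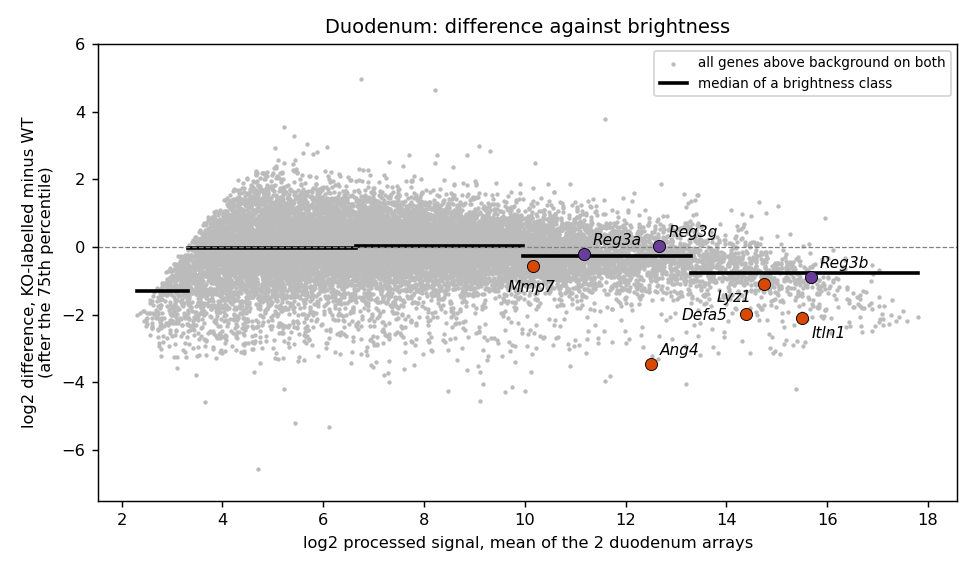
Log2 difference between the KO-labelled and WT duodenum arrays (vertical axis) against mean log2 processed signal (horizontal axis) for the 16801 genes well above background on both; black bars are medians of brightness classes, orange points are Paneth cell members and violet points *Reg3* members. *Ang4* lies at −3.46, below most genes of its brightness, while the bar of the brightest class lies at −0.76, near *Lyz1* and *Reg3b*.

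The order of the members was compared in all 28 pairs of the 8 genes, since subtracting one difference from another removes any shift common to an array. In 24 of the 28 pairs the same gene was the higher in each of the 9 settings. These are not 9 separate checks. The percentile scaling, the array median and the control probes differ only by a shift common to an array, so they give equal gaps. The mean of the probes changes only the gaps of *Itln1*. The deposited table closely follows quantile normalization of the 4 arrays, and the normexp settings gave nearly equal values. The order changed in 4 pairs, *Reg3a* with *Reg3b*, *Mmp7* with *Reg3b*, *Mmp7* with *Lyz1*, and *Defa5* with *Itln1*. In 12 pairs the gap was at least 2-fold in each setting, and 7 of these were the pairs of *Ang4* with every other member. The gap between *Reg3g* and *Ang4* was 3.50, with a range of 2.88 to 3.50 over the settings. The other 5 pairs placed a *Reg3* gene above *Defa5* or *Itln1*, for example *Reg3b* above *Defa5* by 1.103 to 1.58 over the settings. These gaps compare differences of the same probes between 2 arrays and say nothing of how abundant the genes are relative to each other.

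**Figure D3:**
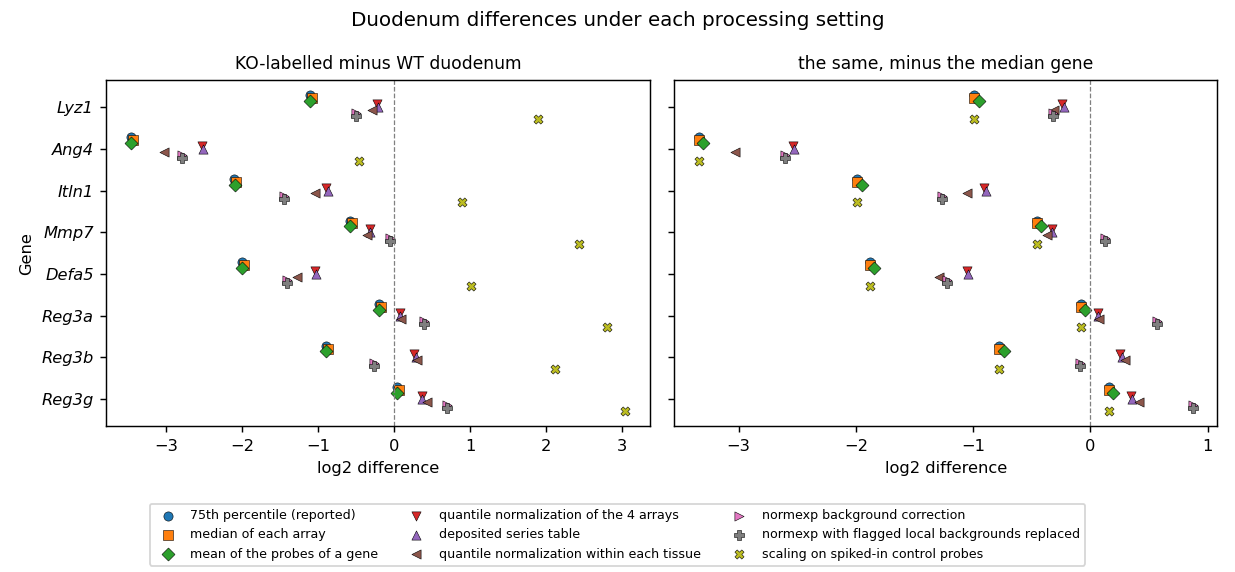
Log2 difference between the KO-labelled and WT duodenum arrays (horizontal axes) for each member under 9 processing settings, as computed on the left and after subtraction of the median gene on the right. *Ang4* lies below 0 throughout, at −2.53 or lower relative to the median gene, whereas *Reg3a*, *Reg3b* and *Mmp7* fall on both sides of 0 there.

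Of 29 further genes of Paneth cell products, 15 had a matched probe that was used, and each was well above background on both duodenum arrays. 11 of the 15 were at least 2-fold lower on the KO-labelled array, with a median of −1.66, against 14.8% of all genes well above background on both arrays and 35.5% of those with a mean signal over 10000. Under quantile normalization of the 4 arrays 3 were at least 2-fold lower and 2 at least 2-fold higher. Under that normalization the shares were 8.79% and 7.11% of the 21421 genes well above background on at least 1 duodenum array. They include 11 α-defensin genes, with WT duodenum signals of 1386 to 154625 and KO-labelled signals of 1992 to 152823. Of these α-defensins 10 were at least 2-fold lower, with a median of −1.72 and a range from −2.26 to −0.27. The lowest was *Defa23*, at −2.26, and *Defa3* and *Defa40* were at −2.14 and −2.09. Under quantile normalization of the 4 arrays only 2 of the 11 were at least 2-fold lower and the median was −0.35. Their probes share sequence, so the 11 values are not 11 independent readings. *Mptx1*, a mucosal pentraxin, read 268 on the WT array and 147 on the KO-labelled array, a difference of −3.11 that was −2.87 under quantile normalization. The 1 gene at least 2-fold higher under the 75th percentile scaling, named after its value was seen, was *Nupr1* (1.87), a stress-response gene that is also expressed outside Paneth cells.

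Of 23 genes for Paneth cell fate, autophagy and the stem cell niche, 18 were well above background on both duodenum arrays, 2 of these were at least 2-fold lower and 2 at least 2-fold higher, with a median of 0.24, against 14.8% and 7.36% of all genes well above background on both. *Fzd5*, a Wnt receptor that Paneth cells need to mature, read 142 on the WT array and 62.7 on the KO-labelled array, a difference of −3.42. *Tcf7l2*, the transcription factor of Wnt signalling in the crypt, was lower (−2.10). *Irgm1*, a GTPase linked to autophagy, was higher by 1.58, and *Bhlha15*, a factor of secretory cells, by 1.07. Markers of the crypt stem cells *Lgr5*, *Ascl2* and *Smoc2* differed by 0.28, 0.19 and 0.12.

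Of 23 genes for microbial sensing and for the cytokine control of the *Reg3* genes, 14 were well above background on both duodenum arrays. Of these, 2 were at least 2-fold lower and 1 at least 2-fold higher, with a median of −0.24. Over all genes well above background on both, the shares were 14.8% and 7.36%, so the counts of this list were near those of all genes. *Il22ra1*, a chain of the interleukin 22 receptor, gave low signals of 15.5 and 14.6 on the WT and KO-labelled arrays and a difference of −2.34. *Stat3*, which acts below that receptor, differed by −0.92, and *Socs3*, a target and inhibitor of STAT3, by −1.06. *Il10rb*, the other chain of the receptor, was higher by 1.01. On the same arrays *Reg3g*, whose expression this pathway is known to raise, differed by 0.040, *Reg3a* by −0.20 and *Reg3b* by −0.89. A link between the pathway genes and the *Reg3* values was not tested.

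Among 25 other mucosal antimicrobial genes, 17 were well above background on both duodenum arrays, 8 were at least 2-fold lower and 2 at least 2-fold higher, against the same 14.8% and 7.36% of all genes. The median was −0.97 and became −0.16 under quantile normalization of the 4 arrays. Under that normalization 6 were at least 2-fold lower and 2 at least 2-fold higher. The shares were 8.79% and 7.11% of the 21421 genes well above background on at least 1 duodenum array. *Retnlb*, a goblet cell protein that kills bacteria, read 117 on the WT duodenum array and 5.86 on the KO-labelled array, a difference of −6.57. The KO-labelled signal lay near the lowest well above background on that array, so the size of this difference is uncertain. *Nos2*, the inducible nitric oxide synthase, differed by −1.85, the protease inhibitor *Slpi* by −1.64 and the phospholipase *Pla2g10* by 1.68.

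Markers of other cell types also differed between the duodenum arrays, and their part in the member values was not tested. All 5 red blood cell genes were lower, with a median of −3.77 and a summed unscaled signal of 104176 (WT) and 28521 (KO-labelled). Of 6 genes of Brunner glands and gastric mucosa, 4 were well above background on both arrays, with a median of 3.54. *Gkn2*, *Tff1* and *Muc5ac*, which mark the gastric surface, were higher by 4.63, 3.79 and 3.29. *Tff2*, a product of Brunner glands and gastric mucous cells, read 77412 (WT) and 228260 (KO-labelled) and differed by −0.69 (0.92 under quantile normalization). The median was −0.94 for 11 genes of pancreatic acinar cells (0.37 under quantile normalization), −0.66 for 6 genes of smooth muscle (−0.31), −0.46 for 6 of macrophages (−0.27), −0.39 for 6 of goblet cells (0.15) and 0.46 for 7 of enteroendocrine cells (0.69), with the value under quantile normalization in brackets throughout. For 10 enterocyte genes the median was −0.0038 (0.52). Their summed unscaled signal was 198406 (WT) and 484671 (KO-labelled), on arrays with 75th percentiles of 68.0 and 323. The *Reg3* genes are known to be expressed in these absorptive cells too.

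**Figure D4:**
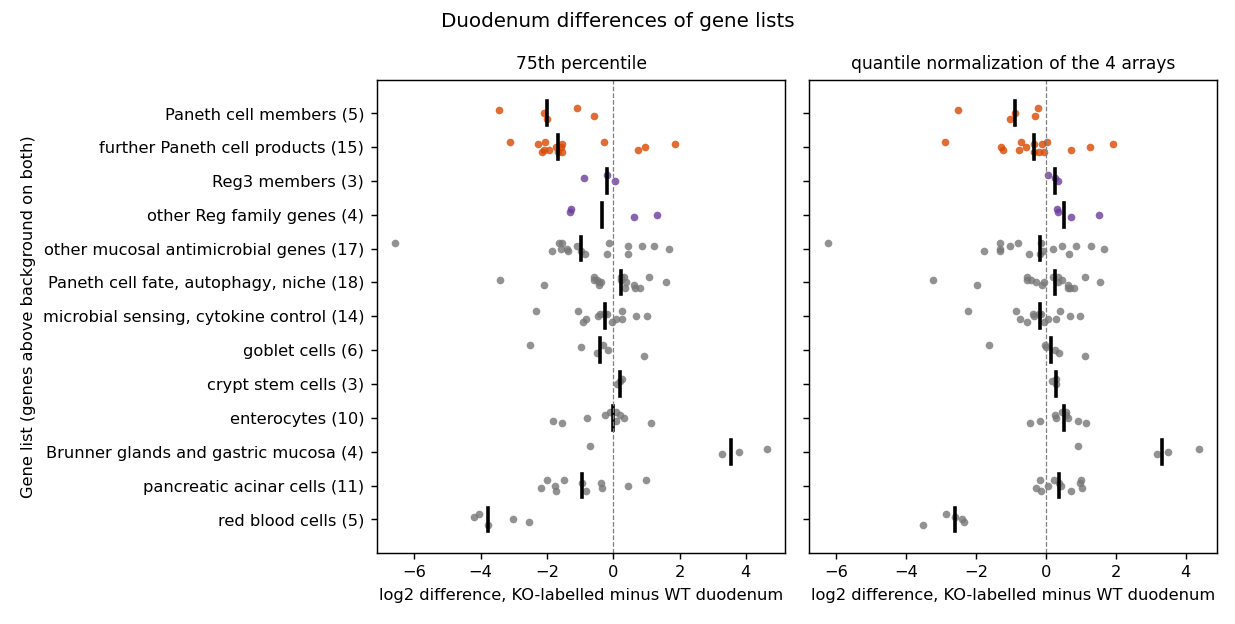
Log2 difference between the KO-labelled and WT duodenum arrays (horizontal axes) for the genes of each list that were well above background on both, with the 75th percentile scaling on the left and quantile normalization of the 4 arrays on the right; black bars are medians and numbers in brackets count the genes. The median of the further Paneth cell products lies at −1.66 on the left and −0.32 on the right, and the red blood cell genes lie below −2 on both sides.

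In the spinal cord, where no Paneth cells exist, *Lyz1* and *Ang4* were the 2 of 8 members well above background, and both were so on each of the spinal cord arrays. *Lyz1* was higher by 1.37 on the KO-labelled spinal cord array, with a range of 1.20 to 1.51 over the settings, against 2.28% of 25211 genes that were at least 2-fold higher there. *Ang4* was higher by 0.45, with a range of −1.61 to 0.45. It was below 0 only under normexp with flagged local backgrounds kept, and with these replaced it was 0.17. The highest local background on the WT spinal cord array was 15708. Of the 15 further Paneth cell products, 2 were well above background on both spinal cord arrays. *Defa23* read 23.0 (WT) and 7.82 (KO-labelled), a difference of −1.66, and *Nupr1* was higher by 0.42. *Lyz2* read 172 (WT) and 494 (KO-labelled) in the spinal cord, a difference of 1.42 close to that of *Lyz1*. Across the 6 macrophage genes measured there, *Lyz2* included, the median was 0.039 and *Lyz2* was the one at least 2-fold higher. Of the 14 other mucosal antimicrobial genes well above background on both spinal cord arrays, 12 were higher and 5 of them at least 2-fold. These 5, named after their values were seen, were *Slpi* (1.38), *Ltf* (1.27), *Jchain* (1.11), *Camp* (1.11) and *S100a8* (1.05), and *Ltf*, *Camp* and *S100a8* are known from neutrophils. The 5 red blood cell genes were all higher as well, with a median of 1.16. The part of blood and myeloid cells in the *Lyz1* value was not tested.

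Between the tissues, all 8 measured members were at least 2-fold higher in the duodenum than in the spinal cord, against 30.2% of 25210 genes on the WT arrays and 30.3% of 25718 genes on the KO-labelled arrays. On the WT arrays *Lyz1* was higher in the duodenum by 7.88 and *Ang4* by 11.68. For the other 6 members the spinal cord signal was not well above background and the difference is a lower bound, taken against the lowest signal well above background there. Under the 75th percentile scaling the bounds on the WT arrays ran from at least 10.90 for *Mmp7* to at least 17.01 for *Itln1*, and over the settings they went down to 3.87 for *Mmp7* and 10.26 for *Itln1*. On the KO-labelled arrays *Lyz1* was higher in the duodenum by 5.40 and *Ang4* by 7.78, and the bounds under the same scaling ran from at least 10.49 for *Mmp7* to at least 15.84 for *Reg3b*, going down to 6.33 and 11.88 over the settings. Over the 9 settings the smallest value of any member was 7.17-fold, for *Lyz1* on the WT arrays.

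The genes outside the members whose 4 scaled values ran most like theirs were found by Euclidean distance, after each gene was centred on its mean over the 4 arrays. Nearest to the mean profile of the 5 Paneth cell members were *Rbp2* (distance 0.25), *Cldn3* (0.77), *Krt42* (0.77), *Clca4b* (0.79) and *Krt19* (0.81), when the members themselves lay 1.00 to 6.09 from it. Nearest to the mean profile of the 3 *Reg3* members were *Sult1b1* (0.23), *Ces2b* (0.31), *Adh6a* (0.37), *Rdh7* (0.41) and *Hnf4a* (0.43), when the members lay 0.44 to 1.94 from it. The distances rest on 4 arrays, 1 per group, and signals not well above background entered as read. In the spinal cord no *Reg3* member was well above background, and their 5 nearest genes read 0.94 to 4.3 there. *Itln1*, *Mmp7* and *Defa5* were not well above background there either. The distances therefore rest in part on spinal cord readings near the floor.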

How the data were processed

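Total RNA of spinal cord and duodenum was measured on 4 Cy3 1-colour mouse arrays of 1 slide, 1 per genotype and tissue, from 0.1 µg RNA with an integrity number over 7. The authors deposited the scanner output of Agilent Feature Extraction 11.5.1.1, in which background had been subtracted from each intensity and trends across the array removed (the processed signal), and a table of log2 values. Its processing is not given in the sources used here. Set against the scanner files, the deposited log2 table matched the processed signal with values below 1 raised to 1 and quantile normalization of the 4 arrays (median absolute difference 0.00053 to 0.0023, column medians 5.11 to 5.12), so its direction is that of the signal.

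Here, outlier spots (89 to 133 of 43020 per array) were left out, spots of a probe averaged, log2 taken and the 75th percentile of each array subtracted. Of several probes of a gene, the one with the highest mean was used. Accessions were matched to symbols of RefSeq (25868 of 26391 probes with a messenger RNA accession). For a probe that was well above background on 1 array of a pair only, the difference was a bound against the lowest signal well above background on the other array, or its own if higher. No spot was saturated. The steps were run on simulated data and recovered 100% of changed probes in each genotype comparison (39428 probes for the duodenum, 39420 for the spinal cord). This checks the code only, and accuracy on the measured arrays was not tested. Alternatives were normexp (offset 50) with and without replacement of flagged local backgrounds, quantile normalization of all arrays or within each tissue, the array median, spiked-in control probes, the deposited table, the mean of the probes, other filters and a 1.5-fold threshold. R 4.3.3 with limma 3.58.1 and Python 3.11.15 were used. The number of arrays limits the precision.

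The members and all gene lists were chosen with earlier results of these data known. From each list at most the 4 genes with the largest duodenum difference among those well above background on both arrays were named, and for likeness the 5 nearest genes. *Nupr1* and the 5 antimicrobial genes named in the spinal cord were chosen after their values were seen.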

Additional observations from a re-analysis of the deposited data

Results flagged for a closer look

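*Lyz1* and *Ang4* were the members measured in both tissues, and each was lower on the KO-labelled array in the duodenum and higher on it in the spinal cord. The duodenum difference minus the spinal cord difference was −2.48 for *Lyz1* and −3.91 for *Ang4* on the log2 scale. With 1 array per genotype and tissue, the difference between the tissues was not tested. Over 9 settings the value ran from −2.48 to 0.69 for *Lyz1*, above 0 only under scaling on the control probes and −1.73 when the 4 arrays were normalized by quantiles. It ran from −3.91 to −0.73 for *Ang4*. The spinal cord difference of *Ang4* was −1.61 under normexp with flagged local backgrounds kept and 0.17 with them replaced.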

How the results depend on the processing

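The median member difference in the duodenum, −0.997 as reported, was −0.38 under both normexp corrections, −0.27 under quantile normalization of the 4 arrays, −0.32 within each tissue, −0.26 in the deposited table and 2.005 under the spiked-in control probes. Of the members, 2 were at least 2-fold lower under quantile normalization of the 4 arrays and in the deposited table, against 8.79% and 8.75% of 21421 genes. The control probes shifted every member by 3.002 (median gene 2.89), and then 0 were at least 2-fold lower and 6 at least 2-fold higher. Under this scaling 0.084% of all 21421 genes were at least 2-fold lower and 96.2% at least 2-fold higher, so the count of 6 is not particular to the members. Of 7 members below 0, 6 turned above it, *Lyz1* (1.90), *Itln1* (0.90) and *Defa5* (1.01), which had been at least 2-fold lower, and *Mmp7* (2.43), *Reg3a* (2.80) and *Reg3b* (2.11). With both arrays required above background, only *Lyz1* and *Ang4* could be compared between the tissues. Both of these 2 members stayed at least 2-fold higher in the duodenum for each genotype, against 43.0% (WT) and 33.6% (KO-labelled) of all genes under this filter. The other values of these results stayed within 1.5 times of the reported count. The cause was not tested. For single members, 167 alternative values moved by more than the technical SD and 41 did not.

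Over all genes, 2550 were at least 2-fold lower and 1543 higher in the KO-labelled duodenum. These counts were 3055 and 843 under normexp, 3064 and 841 with flagged backgrounds replaced, 18 and 20598 under the control probes, 1874 and 3278 in the deposited table, 12536 and 2461 with no filter, and 4830 and 3646 at 1.5-fold. Genes higher in the duodenum numbered 7613 (WT) and 7795 (KO-labelled). They numbered 2175 and 1706 under quantile normalization within each tissue, 860 and 2451 under the control probes, 16460 and 12908 with no filter, and, for WT, 4611 under normexp.

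No paired analysis was possible because each group held 1 array, which also leaves no array to leave out.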
